A study of Homo sapiens with 14 samples.

Results

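The 7 FASN knockdown libraries of a xenograft study, out of 14 libraries in all, held very different amounts of FASN RNA, and the genes that ran up or down with FASN across them are described here. The members are the 7 libraries whose titles name the FASN knockdown. For each of 14449 other genes with a mean level of at least 2 CPM (counts scaled to the library's total) in these libraries, of 62749 genes in the files, the log2 level was correlated with that of FASN, once over all 7 libraries and once with the culture medium held fixed (after subtracting the mean of each medium). The genes described were thus selected on the measured levels of these same libraries, and their correlations are a description without a test. What could be tested is whether a gene followed FASN in the 7 control libraries, which the selection did not use.

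All 14 tumours were grown in mice from UMUC3, a human bladder cancer cell line. The groups were FASN knockdown cells pre-exposed to 10% cigarette smoke medium (FASN_KD_CSM, n = 4), FASN knockdown cells from regular medium (FASN_KD, n = 3), control cells pre-exposed to the same smoke medium (control_CSM, n = 4) and control cells from regular medium (control, n = 3). The controls are titled as carrying a control sh, and how FASN was knocked down is not given in the labels, nor is the number of cell clones, the age or strain of the mice, or the length of exposure. Exposure came before engraftment, so no library was taken during it. Nothing in the labels ties the libraries to separate mice, and a p-value therefore reflects only how far these libraries differ from each other, technical spread included.

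FASN encodes fatty acid synthase, which builds palmitate from acetyl-CoA and malonyl-CoA. Its transcription is driven by the sterol regulatory element-binding proteins: SREBP1, encoded by SREBF1, mainly acts on genes of fatty acid synthesis, and SREBP2, encoded by SREBF2, mainly on genes of cholesterol synthesis and uptake. Both are held in the endoplasmic reticulum and cut free when sterols are low, then bind short promoter sequences called sterol regulatory elements (SREs).

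On plain CPM, 1 library goes against its label. FASN in the library labelled FASN_KD_CSM 4 stood at 136% of the control_CSM mean, so medians of gene lists along the FASN level are given with and without it for the lists it moved furthest. From low to high, FASN had 74.6, 108 and 161 CPM in FASN_KD replicates 2, 1 and 3, and 169, 261, 354 and 553 CPM in FASN_KD_CSM replicates 2, 1, 3 and 4, against 369, 390.3 and 582 CPM in control replicates 3, 2 and 1 and 329.8, 359, 459 and 483 CPM in control_CSM replicates 3, 4, 1 and 2. On plain CPM the 3 FASN_KD libraries therefore lay below all 4 FASN_KD_CSM libraries. No FASN_KD library reached the control range on this scale, whereas the 2 highest FASN_KD_CSM libraries lay inside it. On TPM, which also scales by transcript length, the order differed, with 34.2 in FASN_KD replicate 3 and 21.6 in FASN_KD_CSM replicate 2. Relative to controls of the same medium, FASN stood at 64.0%, 41.4%, 86.8% and 136% in FASN_KD_CSM replicates 1 to 4. It stood at 24.1%, 16.7% and 36.01% in FASN_KD replicates 1 to 3. On TPM these values were 125%, 42.9%, 130% and 204% in FASN_KD_CSM replicates 1 to 4, and 19.5%, 13.1% and 62.7% in FASN_KD replicates 1 to 3. The mean was 334 CPM ± 164 (SD, n = 4) in FASN_KD_CSM and 114 CPM ± 43.5 (SD, n = 3) in FASN_KD, against 408 CPM ± 74.4 (SD, n = 4) in control_CSM and 447 CPM ± 117 (SD, n = 3) in control. The highest knockdown library exceeded the lowest 7.41-fold, and the highest control library exceeded the lowest 1.76-fold. On TMM-scaled CPM, explained below, these were 5.06-fold and 1.68-fold. With the 7SL RNA genes left out of the totals, FASN ran from 100 CPM in FASN_KD replicate 2 to 568 CPM in FASN_KD_CSM replicate 4. Since low and high FASN largely coincide with regular and smoke medium, a correlation over all 7 libraries carries the medium too, which is why the value with medium held fixed stands beside it. In bulk tissue, fewer cells that express a gene and less RNA per cell cannot be told apart.

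FASN (ENSG00000169710.9) lies on the minus strand of chromosome 17, from 82078333 to 82098332 (GRCh38). A single transcript, FASN-201, took 92.3% to 98.5% of the FASN counts in every library, so the leading transcript was the same in all 14 libraries. The FASN counts behind these levels were 1179 to 23550 per knockdown library and 14356 to 25269 per control library.

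**Figure D1:**
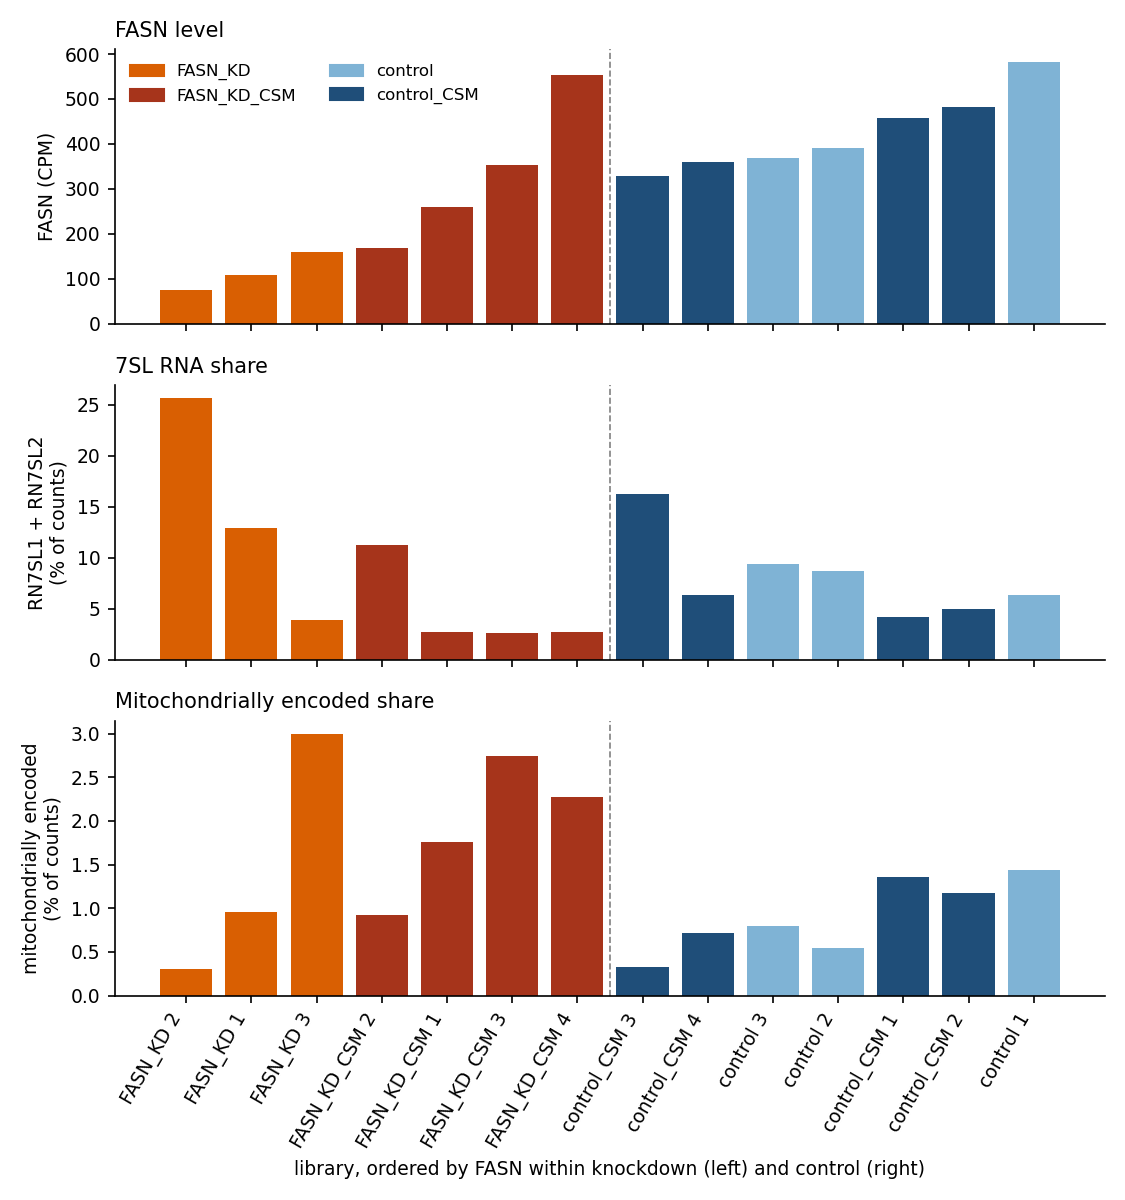
FASN level in CPM (top), share of counts on the 7SL genes RN7SL1 and RN7SL2 (middle) and share on mitochondrially encoded genes (bottom) in each library, as one bar per library, ordered by FASN within the 7 knockdown and the 7 control libraries. FASN runs from 74.6 to 553 CPM among the knockdown libraries, while the 7SL share runs from 25.6% in the library lowest in FASN to 2.67% in the highest.

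Other properties of the libraries moved with FASN. Summed counts ran from 15810287 to 42612442 in the knockdown libraries and from 34374093 to 45209466 in the controls. The 7SL RNA, the RNA part of the signal recognition particle, took 25.6%, 12.9% and 3.89% of the counts in FASN_KD replicates 2, 1 and 3 and 11.3%, 2.73%, 2.64% and 2.67% in FASN_KD_CSM replicates 2, 1, 3 and 4, against 4.196% to 16.3% in the controls. Its log2 share correlated with log2 FASN at r = -0.88 over the 7 knockdown libraries (Spearman -0.93, and -0.83 without the 2 libraries farthest from the median FASN level). The log2 share of mitochondrially encoded RNA, 0.302% to 2.99% in knockdown libraries, correlated at r = 0.77 (Spearman 0.54, and 0.60 without the 2 farthest libraries). Total counts had r = 0.78, which rests on 2 libraries, since it was -0.29 without them. In the 7 control libraries, where these relations could be tested, the mitochondrial share followed FASN at r = 0.86 (Spearman 0.86, exact permutation p = 0.0147 for r and 0.0238 for Spearman, 0.0413 and 0.0476 after adjustment over 4 measures, r = 0.86 without the 2 farthest libraries). The number of genes at 1 CPM or more followed it at r = 0.83 (Spearman 0.93, exact permutation p = 0.0206 and 0.00675, adjusted 0.0413 and 0.0270, r = 0.86 without the 2 farthest). The 7SL share had r = -0.67 in the controls (Spearman -0.57, exact permutation p = 0.0956 and 0.200, adjusted 0.128 and 0.267, r = -0.86 without the 2 farthest), and total counts r = -0.28 (Spearman -0.43, exact permutation p = 0.542 and 0.354, adjusted 0.542 and 0.354, r = -0.95 without the 2 farthest). Within each medium there were 3 or 4 libraries, too few for a separate value, so medium was held fixed, which gave 0.87 for the mitochondrial share, 0.82 for the number of genes and -0.75 for 7SL. With the log2 7SL share also held fixed, several medians of the gene lists below moved in the knockdown libraries. The median r became 0.02 for mitochondrially encoded genes, -0.12 for immediate early genes, -0.12 for neighbours of FASN and -0.22 for lipid regulators. It became 0.77 for cholesterol synthesis, 0.81 for ribosomal proteins, -0.73 for p53 targets and -0.41 for interferon response genes. Beyond these descriptions, the part of the library properties in the gene correlations below was not tested.

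Most genes ran with FASN rather than against it on the plain CPM scale. With medium held fixed, the median r over the 14449 genes was 0.36 in the knockdown libraries and 0.30 in the controls, and 68.2% of genes had a positive r in the knockdown libraries. The scale sets this shift: with totals scaled by TMM, a normalisation that centres the bulk of genes, the median r in the knockdown libraries was 0.03 with 51.4% positive, and on TPM it was 0.81 with 95.5% positive. An r is therefore read here against the median of all genes on its own scale. Both the r over 7 libraries and the r with medium held fixed were at least 0.8 for 692 genes (4.79%) and at most -0.8 for 63 genes (0.436%). Of these, 581 and 54 were protein coding. On TMM-scaled CPM, 689 of the 692 kept a positive and 63 of the 63 a negative r with medium held fixed, but only 313 and 31 were still past 0.8 in size. Without the library labelled FASN_KD_CSM 4, 1343 and 73 genes passed both limits. The genes just inside the limit of 2 CPM were DHX58, C11orf96 and INTS6-AS1 (2.001, 2.002 and 2.003 CPM), and PRND and FOXI3 (1.999 and 1.998 CPM) were the nearest with a symbol outside it.

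As a count model, edgeR's quasi-likelihood test of the FASN slope with medium as a covariate called 0% of the 14449 genes in the knockdown libraries (0 genes at a Benjamini-Hochberg adjusted p below 0.05, 1821 at an unadjusted p below 0.05). DESeq2 called 207 genes in the same libraries. Both fits use the levels that selected the genes, so these counts describe the 7 libraries and are no independent test. Here a slope is the log2 change of a gene per log2 unit of FASN, on TMM-scaled totals. On simulated counts for these 7 libraries the same fit recovered 18% of genes with a slope of 1 and 86% of genes with a slope of 2. For the 7 control libraries, where FASN spans less, it recovered 1% and 53%. A control slope near 1 or below that did not pass is therefore not shown to be absent. The slopes printed below for the knockdown libraries are likewise descriptions with their standard errors (SE).

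Most of the genes that ran with FASN in the knockdown libraries had the same sign in the controls. In the 7 control libraries, which played no part in choosing them, 664 of the 692 genes (96.0%) had a positive r with medium held fixed, where 62.2% of all genes did, with a median of 0.75 against 0.30 over all genes. Of the 63 genes that fell with FASN, 55 (87.3%) had a negative r in the controls, with a median of -0.70. These values are on plain CPM. On TMM-scaled totals 610 of the 692 had a positive control slope (median 0.55) and 59 of the 63 a negative one (median -1.10). The median control slope over all genes was 0.01. Across all genes the r in knockdown and in control libraries correlated at 0.76, a value over genes, which are not independent replicates. FASN spans a much narrower range in the controls, so the same sign there is not the same size of change.

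The edgeR test over the controls called 3.9% of the genes (564), of which 213 had a positive slope (1.47%) and 351 a negative slope (2.43%). With upper-quartile scaling the split was 273 positive to 184 negative. Among the genes past 0.8 in the knockdown libraries, 29 of the 692 and 14 of the 63 were called in the controls. Single libraries moved this count, which was 2, 12 and 16 genes without control replicate 1, 2 or 3, and 8, 12, 1371 and 17 genes without control_CSM replicate 1, 2, 3 or 4. The difference between the slopes in knockdown and control libraries was called for 0% of the genes by edgeR (0 genes, 292 at an unadjusted p below 0.05, and 0 by DESeq2), so no gene was shown to follow FASN differently in the knockdown and control cells.

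GC content moved with the correlation. FASN transcript sequence has 65.3% GC, higher than 97.2% of the genes with a value, and in the knockdown libraries the median r with medium held fixed was -0.12, 0.22, 0.46 and 0.61 over 4 equal bins of genes from low to high GC. The controls had -0.39, 0.10, 0.48 and 0.65 in the same bins. On TMM-scaled CPM the knockdown libraries had -0.36, -0.12, 0.17 and 0.38. GC values were found for 95.9% of the genes. The 692 genes had a median GC of 53.8% and the 63 genes 50.4%, against 47.9% over all genes. The 4 bins by transcript length had medians from 0.32 to 0.38 in the knockdown libraries. The part of GC content in the single genes below was not tested.

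**Figure D2:**
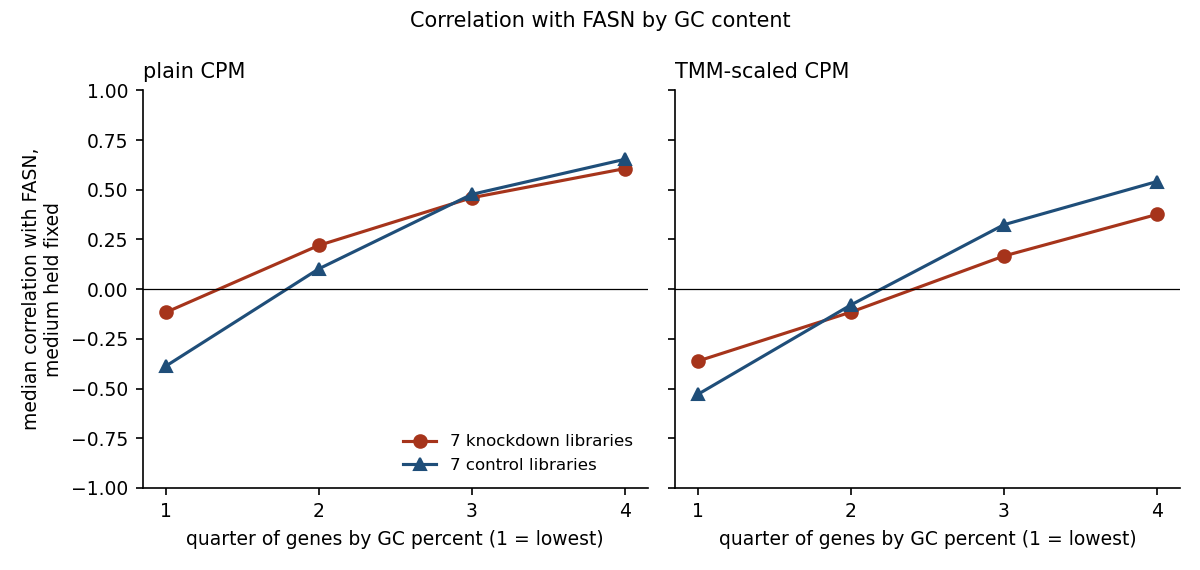
Median correlation of genes with FASN, medium held fixed, by bin of GC content (4 equal bins, low to high), on plain CPM (left) and TMM-scaled CPM (right); circles are the 7 knockdown and triangles the 7 control libraries. The median climbs from -0.12 to 0.61 in the knockdown libraries on plain CPM and from -0.36 to 0.38 on TMM-scaled CPM.

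The 8 protein-coding genes nearest to FASN differed in how far they ranged. USP3, a deubiquitinase, had 91.8, 99.9, 109, 109, 124, 138 and 144 CPM in the knockdown libraries from low to high FASN, in the order of FASN_KD replicates 2, 1 and 3 and FASN_KD_CSM replicates 2, 1, 3 and 4 used for every series of 7 values below. The levels climbed in step with FASN apart from FASN_KD_CSM replicate 2, which was level with FASN_KD replicate 3, and r was 0.99 over 7 libraries and 0.98 with medium held fixed. On TMM-scaled CPM this r was 0.47, and the knockdown slope was 0.05 (SE 0.17), against a median slope of 0.03 over all genes. CUL4A, the scaffold of a ubiquitin ligase, behaved alike, with 84.4 to 124 CPM, r = 0.98 with medium held fixed and 0.50 on TMM-scaled CPM. The other 6 of these 8 genes kept at least 0.84 on TMM-scaled CPM: FAM171A1, PHLDA2, ZNF280C, NOC4L, REPS1 and EBF3. PHLDA2, an imprinted gene that restrains placental growth, had the widest range of these, 10.3, 17.7, 22.6, 18.5, 26.2, 45.7 and 53.8 CPM, a slope of 0.79 (SE 0.20). FAM171A1 had 18.8, 19.6, 30.5, 24.7, 35.6, 44.1 and 57.1 CPM and was called in the controls by edgeR (slope 1.16, SE 0.25, adjusted p = 0.0478), where it had 17.96 to 39.2 CPM. Leaving out control replicate 1 raised that adjusted p to 0.206, and 1 of the 7 fits without a control library still called it.

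Of the genes that fell as FASN climbed, SDF2, a protein of the endoplasmic reticulum, stood first. It had 56.4, 43.7, 27.3, 40.4, 27.3, 19.5 and 17.8 CPM in the knockdown libraries, against 60.3, 40.9 and 27.1 CPM in control replicates 3, 2 and 1 and 59.3, 37.2, 24.3 and 23.6 CPM in control_CSM replicates 3, 4, 1 and 2. In both kinds of cell the library lowest in FASN was near the top for SDF2, and the knockdown and control ranges overlap over most of their length. The edgeR slope in the controls was -2.13 (SE 0.41, adjusted p = 0.0434), and it was -0.95 (SE 0.20) in the knockdown libraries. The control call was held in 1 of 7 fits that left out a library, with the highest adjusted p of 0.188 without control replicate 1. C21orf91 also fell with FASN in the controls (edgeR slope -1.40, SE 0.29, adjusted p = 0.0464, held in 1 of 7 such fits), with 21.2, 19.7, 17.1, 20.4, 15.1, 11.8 and 11.9 CPM in the knockdown libraries. C4B, a complement component whose reads cannot be told from those of its near-identical copy C4A, had 14.6, 14.3, 8.14, 7.48, 6.32, 2.28 and 0.948 CPM in the knockdown libraries but no relation in the controls (r = -0.02). The difference between its slopes was not called by edgeR, as for every gene. SHISA5, RIT1, a small GTPase, OSTF1, CCDC126 and ESYT2, a membrane tether that moves lipids, made up the rest of the 8 lowest, with r between -0.92 and -0.89 with medium held fixed.

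SREBF2 and SREBF1 were among the genes that ran with FASN, while the regulators of lipid synthesis as a list stood near the share of all genes. SREBF2 had 143, 207, 404, 257, 315, 526 and 606 CPM in the knockdown libraries, against 147, 180.3 and 318 CPM in control replicates 3, 2 and 1 and 178, 194, 362 and 293 CPM in control_CSM replicates 3, 4, 1 and 2. FASN_KD replicate 3 stood above its place in the FASN order, and that library and the 2 highest in FASN lay above every control library. Its r was 0.93, 0.94 with medium held fixed and 0.91 on TMM-scaled CPM, and the knockdown slope was 0.76 (SE 0.20). In the controls the edgeR slope was 1.40 (SE 0.31, adjusted p = 0.0486), positive in each of the 7 fits without a control library and called in 1 of them, with an adjusted p up to 0.213 without control replicate 1. SREBF1 had 89.9, 89.0, 160.3, 117, 246, 210.4 and 278 CPM in the knockdown libraries and 48.1 to 117 CPM in the controls. Its r was 0.93 and 0.85 with medium held fixed, and its control slope did not pass (0.62, SE 0.48, edgeR adjusted p = 0.426). RXRB, a nuclear receptor that pairs with the lipid-sensing LXRs, had r = 0.88 on both measures. Over the 28 regulators tested the median r with medium held fixed was 0.46 in the knockdown libraries and 0.26 in the controls, and 20 of 28 were positive in the knockdown libraries, where 68.2% of all genes were (13 of 28, with a median of -0.05, on TMM-scaled CPM, where 51.4% of all genes were). Of the 28, 1 was called in the controls by edgeR, where 3.9% of all genes were.

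Of the genes that bring in and move cholesterol, SCARB1 and NPC1 ran with FASN. SCARB1, a receptor for HDL, had 34.6, 39.5, 48.1, 40.6, 58.4, 93.3 and 105 CPM in the knockdown libraries, against 34.6, 38.0 and 56.6 CPM in control replicates 3, 2 and 1 and 46.2, 40.7, 51.2 and 53.7 CPM in control_CSM replicates 3, 4, 1 and 2. The 3 knockdown libraries highest in FASN lay above all controls. NPC1, which moves cholesterol out of lysosomes, had 18.5, 31.2, 29.7, 23.3, 24.2, 52.2 and 62.2 CPM in the knockdown libraries and 16.6 to 45.3 CPM in the controls. With medium held fixed r was 0.94 for SCARB1 and 0.88 for NPC1, and it stayed at 0.90 and 0.80 without the library labelled FASN_KD_CSM 4. In the controls the slope of SCARB1 did not pass (0.55, SE 0.32, edgeR adjusted p = 0.299). Of the 11 tested genes of cholesterol uptake and transport, 8 had a positive r with medium held fixed and 3 a negative one, where 68.2% of all genes were positive, and 3 were past 0.8 on both measures. The median was 0.52.

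**Figure D3:**
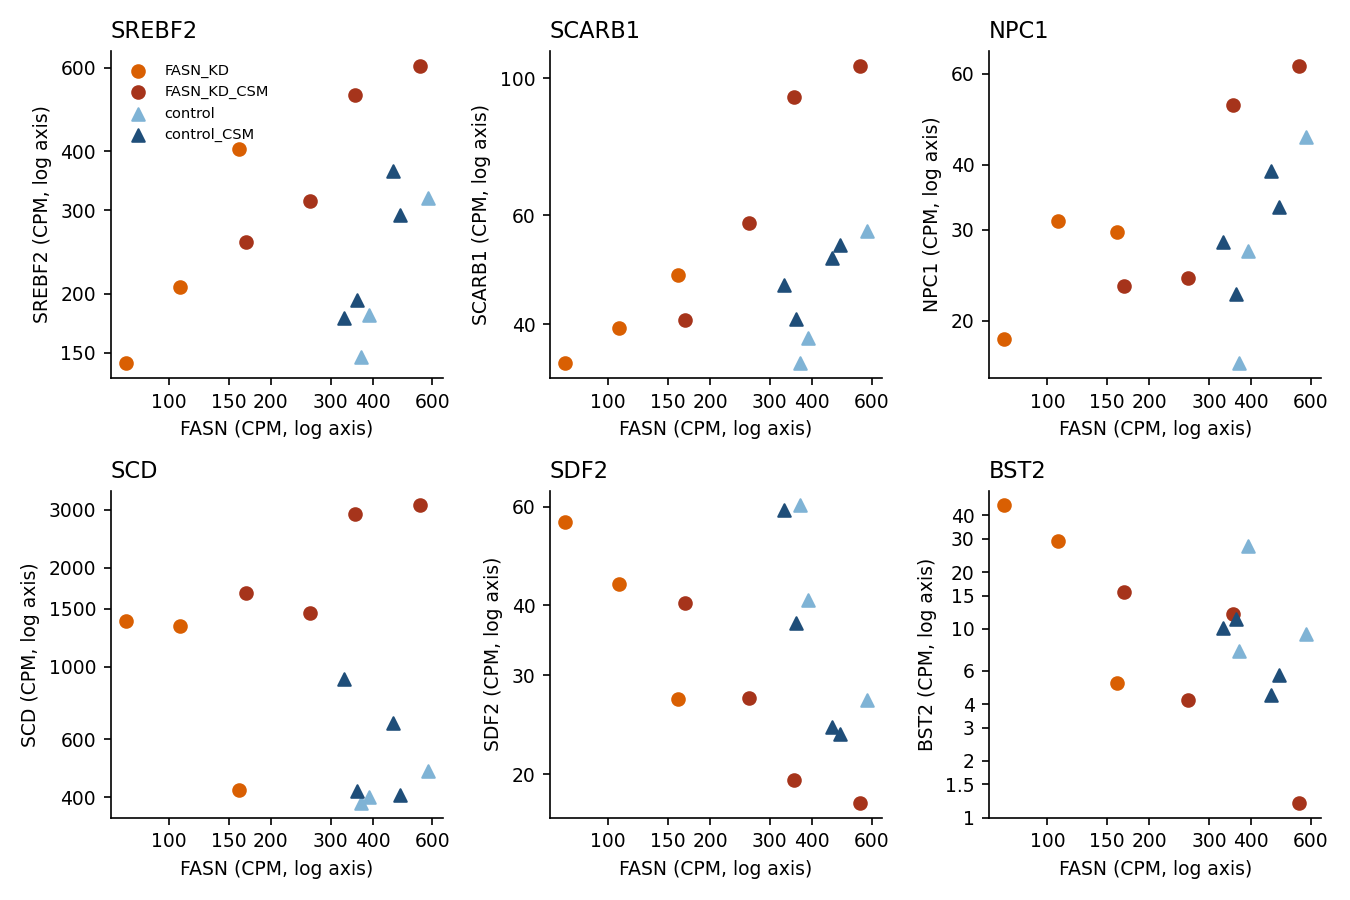
Level of 6 genes against FASN, both in CPM on log axes, 1 point per library; circles are knockdown and triangles control libraries. SREBF2, SCARB1 and NPC1 climb with FASN among the knockdown libraries, SDF2 and BST2 fall, and SCD is lowest in FASN_KD replicate 3 at 419.8 CPM.

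Promoters of genes of lipid synthesis, its regulation and cholesterol transport were looked up because FASN is a textbook target of the SREBPs. Not all of these genes ran with FASN: INSIG1, for one, did not with medium held fixed. Windows from 250 bases before to 50 after the start came from RefSeq (GRCh38.p14), and 11 of the 13 genes looked up had one, those of FASN and SCARB1 not being among them. The motif searched was TCACNCCAC on both strands, a form of the SRE, which 1.13% of 35116 promoters hold. SREBF2 (chr22:41832855-41833154, plus strand, the match at -133 from the start) and MID1IP1 (chrX:38801209-38801508, plus strand, the match on the minus strand at -40) each held 1 match, given in capitals:
SREBF2: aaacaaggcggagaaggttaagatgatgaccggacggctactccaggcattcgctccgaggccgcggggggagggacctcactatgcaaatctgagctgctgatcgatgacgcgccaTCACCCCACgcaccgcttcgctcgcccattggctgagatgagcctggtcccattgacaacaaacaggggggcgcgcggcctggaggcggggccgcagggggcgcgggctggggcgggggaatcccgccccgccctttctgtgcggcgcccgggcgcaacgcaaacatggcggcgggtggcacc
MID1IP1: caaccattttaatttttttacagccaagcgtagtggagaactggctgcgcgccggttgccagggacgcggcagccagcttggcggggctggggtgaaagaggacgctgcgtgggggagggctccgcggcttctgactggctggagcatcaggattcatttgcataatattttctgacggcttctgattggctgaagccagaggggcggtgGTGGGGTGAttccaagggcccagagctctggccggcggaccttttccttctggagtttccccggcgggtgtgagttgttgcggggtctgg

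The other 9 promoters, of SREBF1, LSS, MVK, HSD17B7, SLC25A1, ACSS2, INSIG1, HMGCS1 and NPC1, did not hold these letters in this window. A match or its absence is a description of the window only.

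Fatty acid synthesis genes divided between those that followed FASN and those that did not. MID1IP1, which helps acetyl-CoA carboxylase to assemble into filaments, had 12.5, 15.4, 16.2, 16.0, 21.2, 21.02 and 27.5 CPM in the knockdown libraries, r = 0.95 with medium held fixed, and 19.0 to 26.7 CPM in the controls. SLC25A1, which exports citrate from mitochondria, ran from 63.3 to 115 CPM with r = 0.86, and FADS2, a fatty acid desaturase, from 5.58 to 16.0 CPM with r = 0.81. On TMM-scaled CPM the r of these 3 genes was 0.78, 0.53 and 0.72. The enzymes on either side of FASN did not follow it with medium held fixed: ACACA, which makes malonyl-CoA, had r = 0.05, SCD, which desaturates the products, 0.01, and ELOVL6, which extends palmitate, -0.14. ACLY and ACSS2, which supply acetyl-CoA, had 0.48 and 0.68. Over the 19 tested genes of the list, 14 had a positive r in the knockdown libraries and 12 in the controls, near the 68.2% and 62.2% of all genes. The medians were 0.41 and 0.37. On TMM-scaled CPM the knockdown libraries had 13 positive, with a median of 0.26. By edgeR 1 was called in the controls, where 3.9% of all genes were. The knockdown median on plain CPM was 0.70 without FASN_KD replicate 3 and 0.21 without the library labelled FASN_KD_CSM 4.

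The weak values of these enzymes depend on single libraries at both ends. SCD had 1375, 1333, 419.8, 1676, 1457, 2917 and 3096 CPM in the knockdown libraries, against 384 to 918 CPM in the 7 controls. FASN_KD replicate 3 was the single knockdown library within the control range, and without it the r of SCD with medium held fixed was 0.78 in place of 0.01. ACACA moved to 0.73, INSIG1, which holds the SREBPs in the endoplasmic reticulum, to 0.53 from -0.14, and SQLE, an early enzyme of sterol formation, to 0.57 from -0.03. Without the library labelled FASN_KD_CSM 4 the same r turned negative, to -0.33 for SCD, -0.56 for ACACA, -0.47 for INSIG1 and -0.45 for SQLE. SQLE had 221, 216, 88.9, 255, 165, 318 and 368 CPM in the knockdown libraries and 95.1 to 146 CPM in the controls. For the 22 genes of cholesterol synthesis together, the median r with medium held fixed was -0.00 with all 7 libraries, 11 of them positive, and 0.58 without FASN_KD replicate 3. It was -0.47 without the library labelled FASN_KD_CSM 4. In the controls the median was -0.25, with 8 of 22 positive and 0 called by edgeR, where 62.2% of all genes were positive and 3.9% called. HSD17B7, a late enzyme of the pathway, had 7.65, 9.24, 8.89, 20.7, 17.9, 27.1 and 31.2 CPM in the knockdown libraries, so every FASN_KD_CSM library lay above every FASN_KD library. LSS, which closes the sterol ring system, had 116, 109, 121, 192, 162, 234 and 298 CPM, and r with medium held fixed was 0.78 for HSD17B7 and 0.71 for LSS, or 0.58 and 0.39 without the library labelled FASN_KD_CSM 4. FASN_KD replicate 3 was also the knockdown library with the largest mitochondrial share (2.99%) and with the most CDKN1A, the p53 target p21, at 384 CPM, against 20.0 to 165 CPM in the other 6. The part of this library's other properties in these correlations was not tested.

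The genes of fatty acid breakdown split as well. HSD17B4, ETFB and DECR1 had negative r in both kinds of cell. HSD17B4, of peroxisomal beta-oxidation, had 113, 113, 67.9, 147, 142, 85.0 and 85.5 CPM in the knockdown libraries, r = -0.87 with medium held fixed, against 77.5 to 166 CPM in the controls, where edgeR called its slope (-1.68, SE 0.27, adjusted p = 0.0428, held in 1 of 7 fits without a library). ETFB, an electron carrier of mitochondrial beta-oxidation, had 100.3, 79.0, 62.5, 89.6, 89.7, 52.5 and 48.1 CPM and r = -0.92. DECR1, needed for unsaturated chains, had 29.5, 29.2, 19.1, 25.4, 25.0, 19.3 and 16.4 CPM and r = -0.90, and just missed the call in the controls (slope -1.27, SE 0.30, edgeR adjusted p = 0.0536). CPT1A, the entry step of mitochondrial oxidation, had r = 0.13 with medium held fixed. Over all 26 tested genes of the list 15 were positive, with a median of 0.30 against 0.36 over all genes, and on TMM-scaled CPM 12 were positive, with a median of -0.09.

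Among genes of lipid storage and activation, ACSL5, which activates long-chain fatty acids, had the strongest fall. It had 20.2, 12.9, 8.19, 23.3, 11.1, 8.34 and 4.58 CPM in the knockdown libraries, which is a strict order within each medium, and r was -0.99 with medium held fixed and -0.77 without. The controls had 2.92 to 9.81 CPM and r = -0.60. DGAT1, which makes triglycerides, had 14.5, 22.6, 62.0, 21.7, 31.6, 45.9 and 50.8 CPM with r = 0.88, and PLIN3, a lipid droplet coat protein, 71.6 to 136 CPM with r = 0.88. SGMS1, LPCAT3 and PTDSS2, which make sphingomyelin, remodel phosphatidylcholine and make phosphatidylserine, had r = 0.95, 0.90 and 0.85. These were the highest of their list. Of its 28 tested genes 18 were positive, where 68.2% of all genes were, with a median of 0.29 against 0.36 over all genes. On TMM-scaled CPM 13 of the 28 were positive, with a median of -0.03. Of the 20 tested genes of fatty acid uptake and storage 13 were positive, near the 68.2% of all genes, with a median of 0.58.

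Interferon response genes ran against FASN in the knockdown libraries. Of 29 tested, 26 had a negative r with medium held fixed, with a median of -0.60, where 31.8% of all genes were negative. The controls had 15 of 29 negative and a median of -0.00. BST2, which tethers budding viruses, had 45.1, 29.3, 5.20, 15.7, 4.21, 11.9 and 1.20 CPM in the knockdown libraries, against 7.65, 27.7 and 9.44 CPM in control replicates 3, 2 and 1 and 10.1, 11.3, 4.48 and 5.69 CPM in control_CSM replicates 3, 4, 1 and 2. The 3 highest knockdown values were in the libraries with 11.3% or more 7SL, and the knockdown and control ranges overlap. With medium held fixed r was -0.83 in the knockdown libraries and -0.52 in the controls. HLA-C, which presents peptides to T cells, had r = -0.82 in the knockdown libraries and -0.31 in the controls, and its reads may have been split with those of similar genes. The list leaned on the library labelled FASN_KD_CSM 4: without it the median was -0.22, and without FASN_KD_CSM replicate 3 it was -0.87. On TMM-scaled CPM all 29 were negative, with a median of -0.59. The difference between the slopes was called for 0 of the 29 genes, as for all genes, so the contrast with the controls is not shown by a test.

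**Figure D4:**
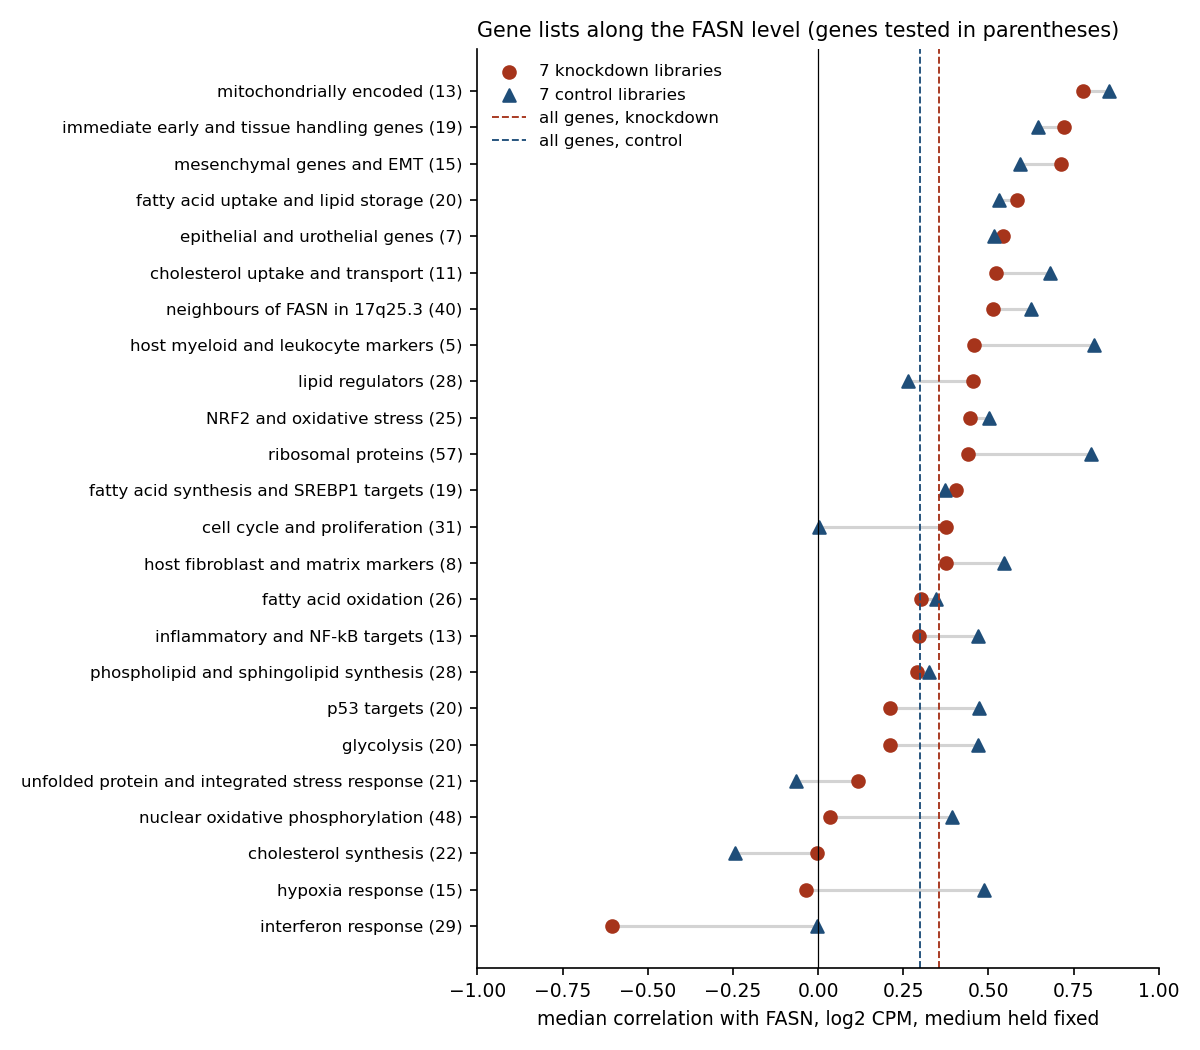
Median correlation with FASN, medium held fixed, for each gene list with at least 5 genes tested; circles are the 7 knockdown and triangles the 7 control libraries, and dashed lines mark all genes. Interferon genes stand lowest in the knockdown libraries at -0.60 and near 0 in the controls, and mitochondrially encoded genes stand highest at 0.78 and 0.85.

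Several lists ran with FASN in both kinds of cell with medium held fixed. In the knockdown libraries the mitochondrial and immediate early medians fell once the 7SL share was also held fixed. Of the 13 mitochondrially encoded genes, 12 had a positive r with medium held fixed in the knockdown and 12 in the control libraries. Of all genes, 68.2% and 62.2% did. The medians were 0.78 and 0.85, and edgeR called 4 in the controls, where it called 3.9% of all genes. MT-ND4L, a subunit of complex I, had 5.63, 29.2, 249.6, 33.6, 70.5, 330.3 and 244 CPM in the knockdown libraries and 18.7 to 180.2 CPM in the controls, a control slope of 4.76 (SE 0.48, edgeR adjusted p = 0.0121) that held in 5 of 7 fits without a library. MT-CO1, of complex IV, had a control slope of 2.51 (SE 0.49, edgeR adjusted p = 0.0438, held in 1 of 7). Nuclear copies of mitochondrial genes could take part of these reads. The mitochondrial median was 0.94 without the library labelled FASN_KD_CSM 4. Of the 48 nuclear genes of oxidative phosphorylation, 24 were positive in the knockdown libraries, with a median of 0.04, and 31 in the controls, with a median of 0.39. Their knockdown median was 0.53 without FASN_KD replicate 3 and -0.36 without the library labelled FASN_KD_CSM 4.

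Immediate early genes respond within minutes to stimuli and to tissue handling. They were positive for 19 of 19 in the knockdown and 19 of 19 in the control libraries, where 68.2% and 62.2% of all genes were. The medians were 0.72 and 0.65 (17 of 19 positive in the knockdown libraries on TMM-scaled CPM). By edgeR 0 were called in the controls, where 3.9% of all genes were. FOSB, FOSL1 and FOS, parts of the AP-1 factor, had r = 0.89, 0.88 and 0.86 in the knockdown libraries. Mesenchymal genes had a median of 0.71 in the knockdown libraries, with 11 of 15 positive, near the 68.2% of all genes. In the controls 12 of 15 were positive, with a median of 0.59, and on TMM-scaled CPM the knockdown median was 0.58. VIM, the intermediate filament of mesenchymal cells, had 1355 to 3200.2 CPM and r = 0.84, while SPARC, a matrix protein, had 452, 422, 141, 332, 232, 231 and 137 CPM and r = -0.86. KRT5, a basal keratin, had 14.2, 9.48, 5.16, 8.10, 7.87, 0.693 and 0.352 CPM and r = -0.89. Of the 26 epithelial and urothelial genes listed, 7 reached 2 CPM, and 5 of these 7 were positive, near the 68.2% of all genes. The list had a median of 0.54 in the knockdown libraries and 0.52 in the controls. On TMM-scaled CPM 4 of the 7 were positive in the knockdown libraries, with a median of 0.27.

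Genes of oxidative stress were positive as often as genes at large. FTL, the ferritin light chain that stores iron, had 119, 166, 418, 109.7, 154, 506 and 482 CPM in the knockdown libraries, r = 0.92, against 148, 359.7 and 1086 CPM in control replicates 3, 2 and 1 and 239, 266, 701 and 472 CPM in control_CSM replicates 3, 4, 1 and 2. Control replicate 1 was the highest of all 14 libraries. In the controls edgeR gave a slope of 2.89 (SE 0.58, adjusted p = 0.0452), a call that held in 1 of 7 fits without a library. Of the 25 tested genes of oxidative stress, 17 were positive in the knockdown libraries, where 68.2% of all genes were, with a median of 0.44, or 0.16 without the library labelled FASN_KD_CSM 4.

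Ribosomal protein genes stood further above all genes in the controls than in the knockdown libraries. Of the 57 ribosomal protein genes, 37 were positive in the knockdown libraries, where 68.2% of all genes were, with a median of 0.44 against 0.36. In the controls 43 were positive, where 62.2% of all genes were, with a median of 0.80 against 0.30 over all genes. Without the library labelled FASN_KD_CSM 4 the knockdown median was 0.05. RPL26 had 110.2, 103, 170.4, 82.3, 75.4, 312 and 387 CPM in the knockdown libraries and a control slope of 3.09 (SE 0.36, edgeR adjusted p = 0.0190, held in 3 of 7 fits), and RPL13 a control slope of 1.66 (SE 0.35, adjusted p = 0.0470, held in 1 of 7). Processed pseudogenes could take part of their reads. Of 31 cell cycle genes 18 were positive in the knockdown libraries, where 68.2% of all genes were, with a median of 0.38 (15, with a median of -0.06, on TMM-scaled CPM). CDT1, which licenses replication, and PLK1, a mitotic kinase, had r = 0.95 each. Without the library labelled FASN_KD_CSM 4 the cell cycle median was -0.14. Median r with medium held fixed was 0.21 for 20 p53 targets, 0.21 for 20 glycolysis genes, -0.04 for 15 hypoxia genes, 0.12 for 21 stress response genes and 0.30 for 13 inflammatory genes. Single libraries moved these medians: without the library labelled FASN_KD_CSM 4 they were 0.51 for p53 targets, 0.60 for glycolysis, 0.50 for hypoxia and 0.53 for inflammatory genes, and without FASN_KD replicate 3 that of p53 targets was -0.20. Without FASN_KD_CSM replicate 2 the inflammatory median was -0.13.

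Of the 40 tested neighbours in 17q25.3, 33 had a positive r with medium held fixed in the knockdown libraries and 33 in the controls. Of all genes, 68.2% and 62.2% did. The medians were 0.51 and 0.63 against 0.36 and 0.30 over all genes. In the controls edgeR called 0 of the neighbours and 3.9% of all genes. Without the library labelled FASN_KD_CSM 4 the knockdown median was 0.74. DCXR, a carbonyl reductase, FOXK2, a forkhead factor, and SLC25A10, a mitochondrial carrier, had r = 0.92, 0.90 and 0.88. CCDC57, another of these neighbours, had 25.9, 50.7, 150.1, 63.6, 139, 86.1 and 74.6 CPM and r = 0.49, so it peaked in FASN_KD replicate 3, not in the library highest in FASN.

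Markers of host cell types were read from human gene symbols alone, as mouse transcripts were not quantified. Their counts can come from tumour cells or from mouse reads that match human transcripts, which cannot be told apart here. The levels below are therefore not a measure of host cells. The summed level of 17 fibroblast and matrix genes was 93.4 to 284 CPM in the knockdown and 85.4 to 269 CPM in the control libraries. Endothelial genes (11) summed to 37.8 to 108 CPM in the knockdown and 54.9 to 109 CPM in the control libraries, and myeloid and leukocyte genes (15) to 78.5 to 169 CPM and 86.1 to 141 CPM. The 7 adipocyte genes summed to at most 2.64 CPM and the 8 muscle genes to at most 1.33 CPM in any knockdown library. Of the 15 myeloid genes 1 had no count in any library, and of the 7 adipocyte genes 1. Over the 7 knockdown libraries the summed level correlated with log2 FASN at r = 0.32 for fibroblast and matrix genes and 0.50 for myeloid genes. For endothelial genes, of which ENG at 28.2 to 88.0 CPM made up most, r was 0.89. Medium was not held fixed in these values, and without it the median r over all genes was 0.46. The part of these genes in the results above was not tested.

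Whether the libraries high in FASN still carried the marks of the knockdown cells was read from genes that separate the knockdown from the control line. In regular medium edgeR called 0.204% of 22560 genes between FASN_KD and control libraries (46 genes), 6 higher and 40 lower in FASN_KD, with FASN among the lower genes. Leaving out 1 library gave 11 to 35 genes, the fewest without control replicate 2, and the levels below come from the CSM libraries. Those libraries are not on either side of that contrast, but they entered its filter on low counts and its estimate of the spread, so they are not wholly separate from the choice of genes. Of the 39 lower genes other than FASN, 35, 37, 34 and 34 lay below all 4 control_CSM libraries in FASN_KD_CSM replicates 1 to 4, where 16.7%, 18.2%, 12.5% and 12.2% of all genes did. Their median log2 difference from the control_CSM mean was -2.24, -2.34, -2.23 and -2.34. All 6 higher genes lay above every control_CSM library in each of the 4 replicates, where 44%, 31%, 41.2% and 39% of all genes did. The library labelled FASN_KD_CSM 4 therefore had the line's pattern at a FASN level above the control mean.

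AJAP1, a membrane protein of adherens junctions, had 0.562, 0.243, 0.726 and 0.258 CPM in FASN_KD_CSM replicates 1 to 4, against 22.5, 22.7, 33.7 and 25.34 CPM in control_CSM replicates 1 to 4. LPAR1, a receptor for lysophosphatidic acid, had 0.281, 0.243, 0.396 and 0.329 CPM in FASN_KD_CSM replicates 1 to 4, against 11.5, 10.6, 15.9 and 16.7 CPM in control_CSM. The groups did not overlap for either gene, whatever the FASN level of the library. COL4A6, a basement membrane collagen that was higher in FASN_KD, had 55.5, 59.5, 44.1 and 17.3 CPM in FASN_KD_CSM replicates 1 to 4, against 6.57, 9.89, 13.6 and 9.06 CPM in control_CSM. It was lowest in the library labelled FASN_KD_CSM 4, though still above every control_CSM library.

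**Figure D5:**
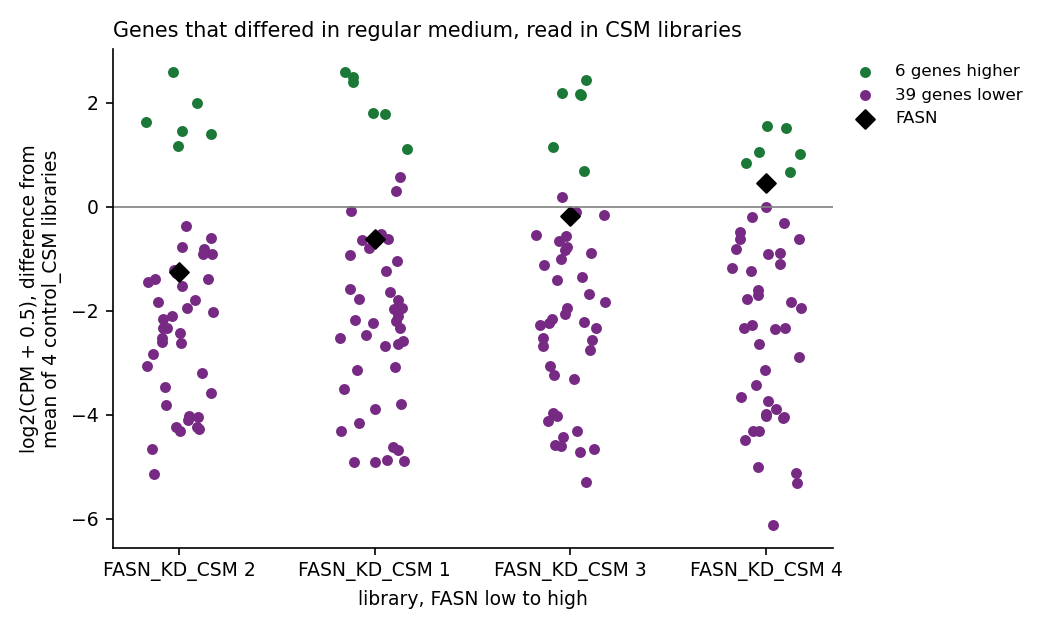
Difference of each gene from the control_CSM mean on the log2(CPM + 0.5) scale, in the 4 FASN_KD_CSM libraries from low to high FASN, for the 39 genes lower and the 6 genes higher in FASN_KD than in control in regular medium; diamonds are FASN. The lower genes stay at a median of -2.34 in the library labelled FASN_KD_CSM 4, where FASN itself is above 0.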

How the data were processed

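The authors deposited, for each library, unnormalised expected counts of 252048 human transcripts beside TPM values, per the file headers. The submitters' processing notes name FastQC, cutadapt, Salmon and GRCh38. Tool versions, the annotation release and the knockdown method were not given in the sources used here. Per the labels' protocols, RNA came from frozen xenograft tissue by a column kit.

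Expected counts were summed to genes and rounded to whole numbers. Levels are plain CPM of the summed counts, and correlations (Pearson) use log2(CPM + 0.5), so changes of low genes are understated. Slopes were tested with edgeR 4.0.16 (TMM, quasi-likelihood, R 4.3.3), with Benjamini-Hochberg adjustment over 14449 genes and 4 residual degrees of freedom per fit of 7 libraries; the regular-medium contrast used all 14 libraries and filterByExpr (minimum count 10, minimum total 15). DESeq2 1.42.0 and limma 3.58.1 were alternatives, beside other scalings, filters, pseudocounts and each library left out; adding the 7SL share as a term was chosen after seeing the data. Library properties in the controls used 5040 exact, two-sided permutations. Coordinates and GC come from GENCODE 29. The fits were tested on simulated data. No pair of libraries within a group agreed within sampling noise. The members, the 28 gene lists and the naming rule were chosen with earlier results of these data known. Named genes are FASN, the 8 protein-coding genes with the highest and the 8 with the lowest of the smaller r whose sign held with any library left out, up to 3 genes per list by r with medium held fixed, and genes fixed by name. Results for a few genes are not reported here.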

Additional observations from a re-analysis of the deposited data

Results flagged for a closer look

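Of 236 sets of 4 values tested for 1 library far from the other 3 (the gap to the nearest value, divided by the whole range, above Dixon's critical value), 18 were flagged, and chance alone flags about 1 in 20. In FASN_KD_CSM, replicate 2 stood high in 7SL share (ratio 0.990), RN7SL1 (0.856) and RN7SL2 (0.944), near-identical genes between which the counting may have split reads. Replicate 4 of that label stood apart in total counts (0.870), FOSB (0.853) and NQO1 (0.919), a detoxifying enzyme at 151 CPM against 98.3 to 103 CPM in the other 3. EGLN1, an oxygen sensor, stood apart in replicate 3 (0.830), and TRPC4, a cation channel, in replicate 1 (1), at 0.211 CPM where the other 3 had no count. In control_CSM, replicate 2 stood apart in NOC4L (0.864), C4B (0.841) and ENG (0.938). Replicate 3 did so in CCDC126 (0.883), RN7SL1 (0.915) and COL6A2 (0.956), a collagen at 22.0 CPM against 94.9 to 98.2 CPM. Replicate 1 did so in HSD17B7 (0.908), FOSB (0.887) and CDKN1A (0.889), the last at 235 CPM against 33.5 to 55.8 CPM, and replicate 4 in ACSL5 (0.858).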

How the results depend on the processing

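Where 0 genes followed FASN in the knockdown libraries by edgeR, DESeq2 called 207, no filter on low values 456, limma on log2(TPM + 1) 7484, the replicate block 31 and a 7SL term 2, and leaving out a library 0 to 7 genes. For the 564 control calls these were 2144, 871, 5953, 3 and 538, with 162 without 7SL in the counts, 143 with FASN on TMM-scaled CPM, 1 without medium, and 2 to 1371 with a library left out. The slope difference kept 0 calls in every fit that left out a library and gave 82 with no filter. The 46 calls in regular medium became 17 with the replicate block and 11 to 35 without a library. The 692 genes past 0.8 became 162 on TMM-scaled CPM, 249 with 7SL left out and 6495 on TPM (547 to 1540 without a library), and the 63 past -0.8 became 201, 155 and 6 (62 to 196). FASN_KD_CSM FASN averaged 125% of control on TPM in place of 81.9%. Control slopes turned sign for C21orf91 (0.42) on TPM and for SREBF1 (-0.63) with the block. Of 109 knockdown slopes, which carry no call, 61 kept their sign with the block, 89 each on TPM and with the 7SL term, 99 without medium and 99 to 109 with a library left out. The causes were not tested. Whether replicate numbers pair the libraries was not settled. Same-numbered knockdown libraries correlated at -0.14, 0.47 and 0.22 and control libraries at 0.46, -0.24 and 0.19. Differently numbered ones ran from -0.57 to 0.39 in the knockdown and from -0.60 to 0.45 in the control libraries, too few pairs to decide. With 7 libraries, slopes near 1 were mostly missed in simulation, and intervals for single counts cover counting error only.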
